A study of Rattus norvegicus with 12 samples.

Results

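Insulin release from the β-cell is set by glucose together with hormones, neurotransmitters and fatty acids that act on receptors of the cell surface, and the 10 such receptors described here were Glp1r, Gipr, Gcgr, Crhr1, Oxtr, Ffar1, Chrm3, Adra2a, Sstr2 and Sstr3. They were selected by name, with earlier values of the same table known: Oxtr and Crhr1 had stood among the largest decreases of the ChREBPβ against the GFP libraries at 11 mM glucose, and the other 8 were added as receptors of the same kind. The fold changes of that contrast are therefore given as a description, with no test. The 10 genes are 10 of the 28727 named entries of the count table, and all 10 passed the filter on low counts, which left 14669 genes for testing.

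The study asked what ChREBPβ, the short and constitutively active form of the glucose-responsive transcription factor ChREBP, does to β-cells. INS-1 832/13 cells, a clonal insulin-secreting line from a rat insulinoma, were transduced with adenovirus. The culture time is 48 h where the study describes this experiment, while its general methods for adenovirus give longer times. RNA was amplified with a NuGEN kit and sequenced, and the authors counted reads per gene. The 12 libraries held 25754488 to 60531215 counts on named genes. There were 4 groups of 3 libraries, with replicate letters a, b and c: GFP adenovirus at 2 mM glucose, GFP adenovirus at 11 mM glucose, ChREBPβ adenovirus at 2 mM glucose and ChREBPβ adenovirus at 11 mM glucose. All 4 groups carried an adenovirus, so no group shows the receptors in untransduced cells, and a clonal tumour line has none of the neighbouring cell types of an islet. The GFP libraries at 2 mM held 25754488, 32938546 and 30197425 counts, and those at 11 mM 44398404, 36219167 and 46654823. The ChREBPβ libraries held 28595982, 57726412 and 57313995 counts at 2 mM and 60531215, 59249045 and 57088794 at 11 mM, so that 5 of the 6 ChREBPβ libraries, all but library a at 2 mM, were deeper than every GFP library.

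The receptors all couple to heterotrimeric G proteins, and the class of G protein sets the direction of the response. Receptors coupled to Gs (Glp1r, Gipr, Gcgr, Crhr1) raise cyclic AMP and enhance glucose-stimulated secretion, those coupled to Gq (Oxtr, Ffar1, Chrm3) raise intracellular calcium through phospholipase C, and those coupled to Gi (Adra2a, Sstr2, Sstr3) lower cyclic AMP and restrain secretion. Lower expression of Glp1r and Gipr in β-cells is a known feature of sustained high glucose.

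Levels below are in CPM, the usual rescaling of a gene's counts by the total of its library, where each total was adjusted with edgeR's trimmed mean of M values (TMM). They are relative to the other genes of a library, so that fewer cells carrying an mRNA and less of it per cell cannot be told apart. Because transcript lengths were not used here, a gene with more counts than another need not have more transcripts, and count ratios of gene pairs are compared only between libraries. Fold changes are log2 values with their standard error (SE) from edgeR's quasi-likelihood fit of all 12 libraries; a gene was called where its adjusted p (Benjamini-Hochberg, over all 14669 genes) was below 0.05 and its change at least 1.2-fold. The study's legend for heat maps of these data gives averages of 3 independent experiments, while the sample labels do not say whether the replicates came from separate cultures; the p-values measure the spread between these samples, which may in part be technical.

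The labels were first checked on the transduced gene and its targets. Mlxipl, the rat gene of ChREBP, had 256 ± 18.8 CPM (SD, n = 3) in the GFP libraries at 2 mM and 205 ± 6.63 CPM in those labelled ChREBPβ, and 207 ± 5.32 CPM and 188 ± 11.0 CPM at 11 mM, so its count was not higher with the ChREBPβ virus at either glucose level and was called lower at 2 mM (-0.33 ± 0.052, edgeR adjusted p = 2.03e-05). An entry of the table named ChREBPb, singled out after its values were seen, had 77.8 ± 4.53 CPM and 90.1 ± 0.504 CPM at 2 mM and 68.0 ± 4.63 CPM and 88.0 ± 9.00 CPM at 11 mM. It was called higher with ChREBPβ at 11 mM (0.37 ± 0.064, edgeR adjusted p = 6.90e-05). In low glucose its groups did not overlap, and its change was under 1.2-fold (0.21 ± 0.065, edgeR adjusted p = 0.00841). Pklr, the liver-type pyruvate kinase and a classical ChREBP target, was 3.22-fold higher in the libraries labelled ChREBPβ at 2 mM (log2 fold change 1.69 ± 0.048, edgeR adjusted p = 1.52e-16). Txnip, another ChREBP target, was 17.4-fold higher (4.12 ± 0.054, edgeR adjusted p = 2.12e-21). In high glucose Pklr was 2.11-fold higher and Txnip 1.90-fold higher with ChREBPβ, and Txnip also followed glucose, 13.4-fold higher at 11 than at 2 mM in the GFP libraries (3.74 ± 0.054, edgeR adjusted p = 3.26e-20). The virus carried a mouse cDNA and the counts are of rat genes; since the Mlxipl count itself did not rise, the groups are called by their labels throughout, and each direction between viruses below is one between libraries labelled ChREBPβ and libraries labelled GFP.

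**Figure D1:**
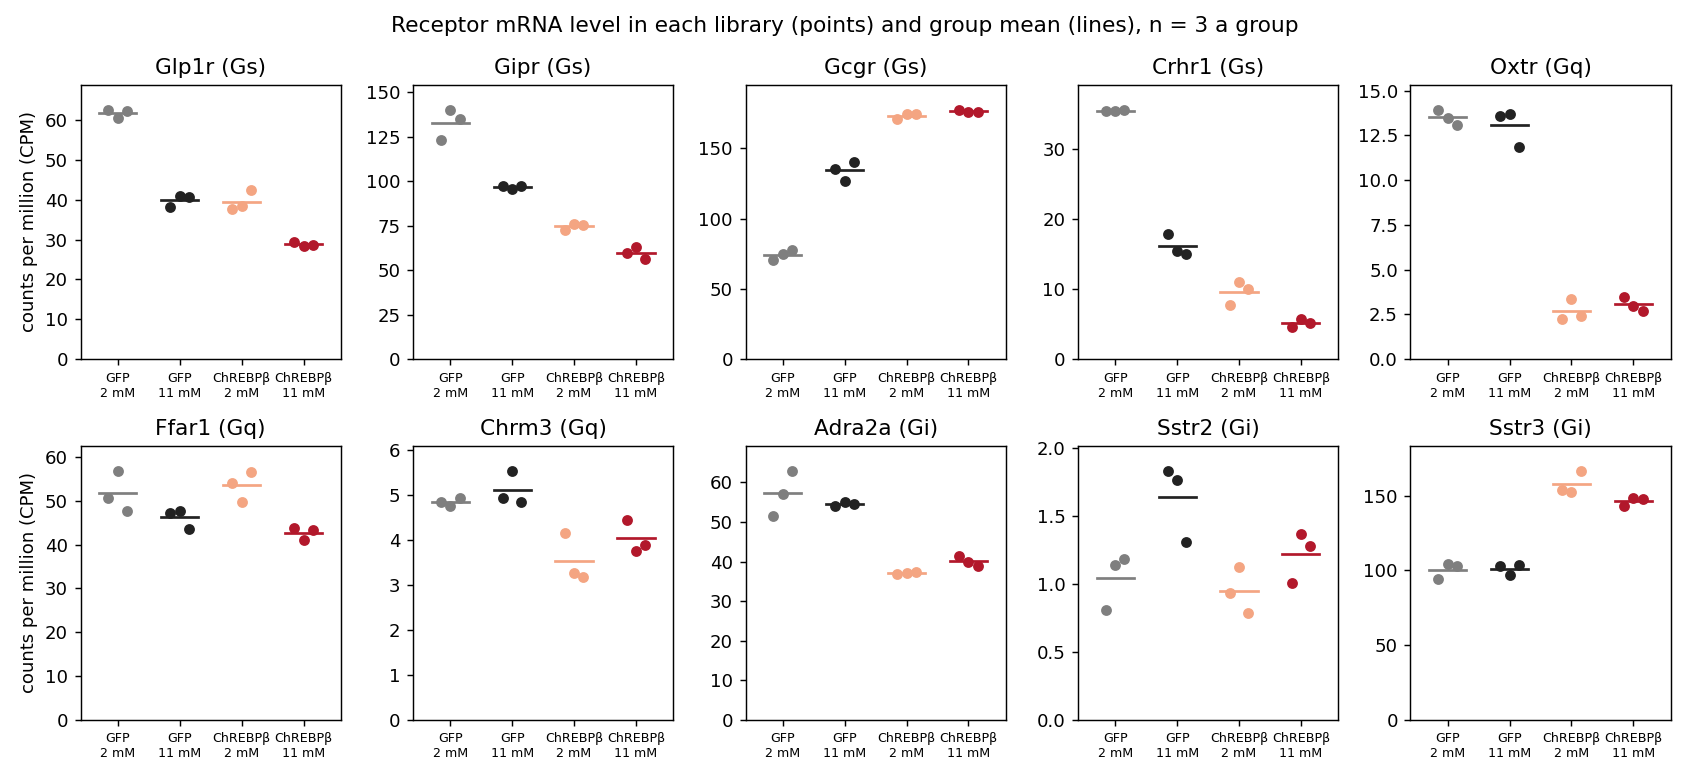
Level of each receptor in CPM (vertical axes, from 0) in the 12 libraries, by virus and glucose; points are libraries, short lines the means of 3, and the G protein class stands beside the name. Oxtr lay between 2.26 and 3.48 CPM in the 6 libraries labelled ChREBPβ and between 11.9 and 13.9 CPM in the 6 labelled GFP.

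Of the Gs-coupled receptors, the incretin receptors Glp1r and Gipr and the stress hormone receptor Crhr1 were lower in the libraries labelled ChREBPβ and lower at 11 than at 2 mM glucose, whereas the glucagon receptor Gcgr was higher with ChREBPβ and, in the GFP libraries, at 11 mM. Glp1r, the receptor of glucagon-like peptide 1, was at 62.6, 60.5 and 62.3 CPM in the GFP libraries a, b and c at 2 mM and at 37.6, 38.4 and 42.5 CPM in those labelled ChREBPβ. At 11 mM it was at 38.2, 40.9 and 40.8 CPM with GFP and 29.4, 28.3 and 28.7 CPM with ChREBPβ. The GFP libraries at 2 mM stood above all others and the ChREBPβ libraries at 11 mM below all others, while the GFP libraries at 11 mM overlapped the ChREBPβ libraries at 2 mM. The 2 mM libraries labelled ChREBPβ were 1.56-fold lower than GFP (log2 -0.64 ± 0.053, edgeR adjusted p = 2.57e-09), and in the GFP libraries 11 mM was lower than 2 mM by a similar amount (-0.63 ± 0.053, edgeR adjusted p = 2.75e-08). Within the libraries labelled ChREBPβ, 11 mM was again lower than 2 mM (-0.46 ± 0.053, edgeR adjusted p = 1.67e-05).

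Gipr, the receptor of glucose-dependent insulinotropic polypeptide, was at 123, 140.1 and 135 CPM with GFP and 72.7, 76.0 and 75.4 CPM with ChREBPβ at 2 mM. At 11 mM the values were 97.3, 95.5 and 97.2 CPM and 59.5, 62.9 and 56.3 CPM. No group overlapped its neighbour, and the order from the highest was GFP at 2 mM, GFP at 11 mM, ChREBPβ at 2 mM and ChREBPβ at 11 mM. The libraries labelled ChREBPβ were 1.78-fold lower at 2 mM (log2 -0.83 ± 0.051, edgeR adjusted p = 3.09e-11), and the 11 mM libraries were lower with GFP (-0.46 ± 0.05, edgeR adjusted p = 8.65e-07) and with ChREBPβ (-0.33 ± 0.051, edgeR adjusted p = 4.09e-04).

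Crhr1, through which corticotropin-releasing hormone and urocortins act, took the same order of groups over a wider range. Its levels were 35.3, 35.3 and 35.5 CPM with GFP and 7.73, 11.0 and 10.0 CPM with ChREBPβ at 2 mM. They were 17.8, 15.4 and 15.0 CPM and 4.52, 5.74 and 5.10 CPM at 11 mM, where the lowest library still held 265 counts of the gene. All 4 groups were separate, and the mean of the highest was 6.92 times that of the lowest. At 2 mM Crhr1 was 3.63-fold lower with ChREBPβ than with GFP (log2 -1.86 ± 0.099, edgeR adjusted p = 3.54e-12). The 11 mM libraries were lower than the 2 mM libraries with GFP (-1.14 ± 0.095) and with ChREBPβ (-0.93 ± 0.11). These glucose changes are descriptions, because Crhr1 was chosen by the difference between viruses at 11 mM, which holds the 11 mM libraries of both.

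Gcgr, through which glucagon raises cyclic AMP in β-cells, ran the other way. It was at 70.3, 74.9 and 77.5 CPM with GFP and 171, 174 and 175 CPM with ChREBPβ at 2 mM. At 11 mM it was at 136, 127 and 140.3 CPM with GFP and 177, 176 and 176 CPM with ChREBPβ. The GFP libraries at 2 mM were the lowest of all and those at 11 mM came next, while the ChREBPβ groups lay next to each other and did not overlap, with a difference of 0.03 ± 0.044 that did not pass the test (edgeR adjusted p = 0.8; 95% interval -0.07 to 0.13). Gcgr was 2.33-fold higher with ChREBPβ at 2 mM (log2 1.22 ± 0.046, edgeR adjusted p = 1.17e-14) and 1.81-fold higher at 11 than at 2 mM with GFP (0.85 ± 0.046, edgeR adjusted p = 5.34e-11). The difference between viruses was smaller at 11 than at 2 mM by a test of the interaction, which came to -0.83 ± 0.063 (edgeR adjusted p = 2.97e-08).

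RefSeq's promoter windows, 250 bases before to 50 after a gene's start in the rat build GRCr8, were matched by symbol for 9 of the 10 receptors, with 11 windows in all because Gcgr and Crhr1 have more than 1 start; Gipr had no entry. Both strands were searched for the E-box CACGTG, the cyclic AMP response element TGACGTCA, the GC box GGGCGG and a spaced pair, CACGNG followed after any 5 bases by CNCGNG, which is like the carbohydrate response element that ChREBP binds and whose first 6 letters take in the E-box. Of all 33469 rat windows, 6.42% held the E-box, 1.83% the cyclic AMP response element, 33.1% the GC box and 0.332% the spaced pair. Neither the E-box nor the spaced pair was present in the 11 windows. The windows of Oxtr and Gcgr, which had the largest decrease and the largest increase of the 10 between viruses at 2 mM, and of Sstr2, the only receptor with a cyclic AMP response element in its window, are shown 5′ to 3′ with the motif matches of either strand in capitals; the Gcgr window is that of the first start. They lie at chr4:147170450-147170749 on the minus strand, chr10:106306553-106306852 on the plus strand and chr10:99163103-99163402 on the plus strand.
Oxtr: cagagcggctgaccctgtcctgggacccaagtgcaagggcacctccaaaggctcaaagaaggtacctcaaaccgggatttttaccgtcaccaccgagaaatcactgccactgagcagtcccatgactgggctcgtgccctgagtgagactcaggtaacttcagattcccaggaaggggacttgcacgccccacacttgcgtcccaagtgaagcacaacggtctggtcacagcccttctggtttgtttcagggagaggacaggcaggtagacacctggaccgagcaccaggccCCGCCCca
Gcgr: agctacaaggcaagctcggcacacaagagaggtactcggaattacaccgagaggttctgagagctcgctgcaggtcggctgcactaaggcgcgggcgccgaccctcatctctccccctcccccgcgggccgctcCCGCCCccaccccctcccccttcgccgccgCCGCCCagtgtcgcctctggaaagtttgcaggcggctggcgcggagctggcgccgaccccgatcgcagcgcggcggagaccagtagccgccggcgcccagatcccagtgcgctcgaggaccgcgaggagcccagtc
Sstr2: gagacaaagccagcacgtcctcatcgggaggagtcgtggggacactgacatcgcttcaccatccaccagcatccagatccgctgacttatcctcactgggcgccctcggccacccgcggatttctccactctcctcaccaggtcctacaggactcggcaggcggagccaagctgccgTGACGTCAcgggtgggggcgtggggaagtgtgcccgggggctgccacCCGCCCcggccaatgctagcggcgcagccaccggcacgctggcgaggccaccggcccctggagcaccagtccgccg
The Oxtr window has 1 GC box, 43 bases after the start, and the Gcgr window has 2, beginning 116 and 86 bases before it. In the Sstr2 window the cyclic AMP response element begins 73 bases before the start and a GC box 26 bases before it. A match is a description of the letters and not evidence of binding.

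Of the Gq-coupled receptors, Oxtr was much lower in the libraries labelled ChREBPβ and Chrm3 moderately so, while Ffar1 was lower at 11 mM within the ChREBPβ libraries. Oxtr, the oxytocin receptor, was at 13.9, 13.5 and 13.1 CPM with GFP and 2.26, 3.35 and 2.38 CPM with ChREBPβ at 2 mM. At 11 mM it was at 13.6, 13.7 and 11.9 CPM with GFP and 3.48, 2.98 and 2.71 CPM with ChREBPβ. The raw counts behind the ChREBPβ values were 63, 188 and 133 in the low-glucose libraries and 204, 170 and 148 in the others, against 379, 463 and 408 and 614, 512 and 561 in the GFP libraries. Every library labelled ChREBPβ lay below every GFP library, and within each virus the glucose groups overlapped. Oxtr was 4.96-fold lower with ChREBPβ at 2 mM (log2 -2.31 ± 0.13, edgeR adjusted p = 7.72e-12). The glucose difference was -0.05 ± 0.11 with GFP, and from -0.084 to 0.017 with 1 library left out. With ChREBPβ it was 0.17 ± 0.14, and from 0.066 to 0.39 with 1 library left out. Both values are descriptions, because Oxtr was chosen by the difference between viruses at 11 mM, which holds the 11 mM libraries of both.

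Chrm3, the muscarinic receptor for acetylcholine released by parasympathetic nerves, had 116 to 261 counts per library. It was at 4.85, 4.75 and 4.94 CPM with GFP and 4.15, 3.26 and 3.19 CPM with ChREBPβ at 2 mM. At 11 mM it was at 4.93, 5.54 and 4.84 CPM with GFP and 4.45, 3.75 and 3.89 CPM with ChREBPβ. The viruses did not overlap at either glucose level, and library a was the highest of the ChREBPβ libraries at both. At 2 mM the change was -0.48 ± 0.13 (edgeR adjusted p = 0.00372), and no glucose difference was called.

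Ffar1, the receptor for long-chain fatty acids, ranged from 41.0 to 56.9 CPM over the 12 libraries, the narrowest relative range of the 10. With ChREBPβ it was at 54.2, 49.8 and 56.6 CPM at 2 mM and 43.8, 41.0 and 43.4 CPM at 11 mM, without overlap (-0.32 ± 0.063, edgeR adjusted p = 0.00265). With counts thinned to equal depth this change was -0.26, just under 1.2-fold, and was not called. With GFP it was at 50.8, 56.9 and 47.8 CPM at 2 mM and 47.2, 47.7 and 43.7 CPM at 11 mM, which differed by -0.17 ± 0.064, short of 1.2-fold, and was not called (edgeR adjusted p = 0.0507). The interaction of virus and glucose was not called (-0.16 ± 0.09, edgeR adjusted p = 0.342), so the 2 glucose differences were not shown to differ. Between viruses at 2 mM the groups overlapped and the change of 0.04 ± 0.064 was not called; its sign turned with upper-quartile scaling and with library totals.

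Of the Gi-coupled receptors, which restrain secretion, Adra2a was lower and Sstr3 higher in the libraries labelled ChREBPβ. Adra2a, the α2A-adrenergic receptor by which adrenaline and noradrenaline inhibit insulin release, was at 51.5, 57.2 and 63.0 CPM with GFP and 36.8, 37.1 and 37.3 CPM with ChREBPβ at 2 mM. At 11 mM it was at 54.1, 55.0 and 54.5 CPM with GFP and 41.3, 39.9 and 38.9 CPM with ChREBPβ. All 6 libraries labelled ChREBPβ lay below all 6 GFP libraries, and the change at 2 mM was -0.63 ± 0.058 (edgeR adjusted p = 1.72e-08). Glucose gave no call with GFP (-0.07 ± 0.057, edgeR adjusted p = 0.372) or with ChREBPβ (0.11 ± 0.058, edgeR adjusted p = 0.29).

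Sstr3, a somatostatin receptor, was at 94.2, 104 and 103 CPM with GFP and 154, 153 and 167 CPM with ChREBPβ at 2 mM. At 11 mM it was at 103, 96.7 and 104 CPM with GFP and 143, 148 and 148 CPM with ChREBPβ. The 6 ChREBPβ libraries lay above the 6 GFP libraries, and at 2 mM the gene was 1.57-fold higher (0.65 ± 0.049, edgeR adjusted p = 6.28e-10). Neither glucose difference was called (0.01 ± 0.049 with GFP, edgeR adjusted p = 0.883; -0.11 ± 0.047 with ChREBPβ, edgeR adjusted p = 0.197).

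Sstr2, the other somatostatin receptor, was the sparsest of the 10, with 22 to 83 counts per library. It was at 0.808, 1.14 and 1.19 CPM at 2 mM and 1.84, 1.77 and 1.31 CPM at 11 mM with GFP. With ChREBPβ it was at 0.931, 1.12 and 0.788 CPM and 1.01, 1.37 and 1.28 CPM. The GFP groups did not overlap and the ChREBPβ groups did. The higher level at 11 mM with GFP passed the threshold by little (0.63 ± 0.24, edgeR adjusted p = 0.0489). The call was lost with RLE, upper-quartile or total-count scaling (edgeR adjusted p = 0.0504, 0.0576 and 0.0585). The change stayed about as large there (0.629, 0.611 and 0.603). With counts thinned to equal depth the change was 0.523 and the call was also lost (edgeR adjusted p = 0.139). Leaving out 1 library at a time gave adjusted p from 0.0308 to 0.167, and the call was kept only without library c of the GFP group or library a of the ChREBPβ group at 11 mM. Between viruses at 2 mM Sstr2 differed by -0.15 ± 0.26 (edgeR adjusted p = 0.643), with a 95% interval of -0.74 to 0.44 that takes in the values of Glp1r, Chrm3 and Adra2a as well as 0.

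**Figure D2:**
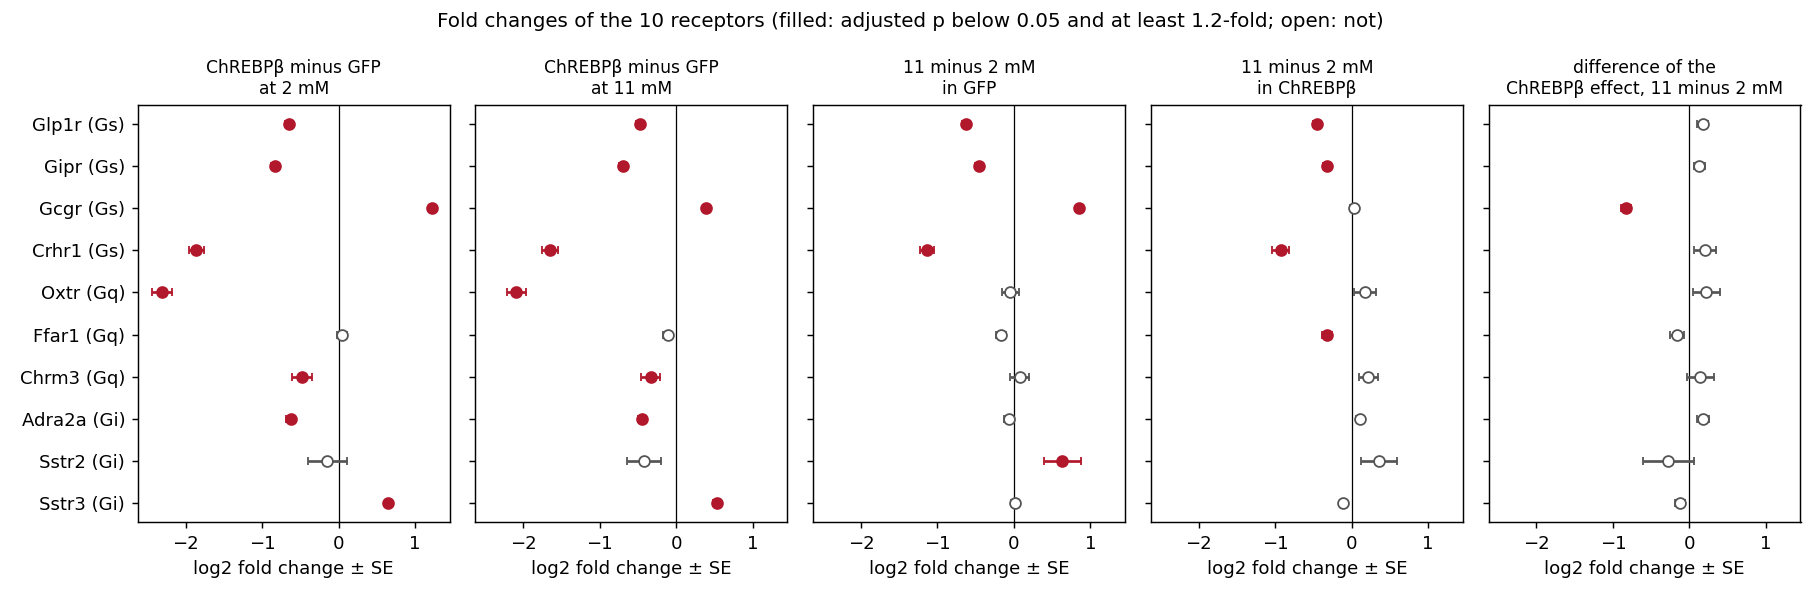
Log2 fold changes with SE (horizontal axes) of the 10 receptors in the 5 comparisons; filled points were called and open points were not. At 2 mM the log2 fold changes between viruses ran from -2.31 for Oxtr to 1.22 for Gcgr, and in the interaction panel only the point of Gcgr was called. The second panel is a description, as its contrast had a part in the choice of receptors. In the glucose and interaction panels the points of Oxtr and Crhr1 are also descriptions, filled or open, as these contrasts hold libraries used in that choice.

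Counted together, 6 of the 10 receptors were called lower with ChREBPβ at 2 mM, where 23.2% of the 14669 tested genes were called lower, and 2 were called higher, where 21.0% of all genes were. The share called higher was thus close to that of all genes. The share called lower was above it, but Oxtr and Crhr1 had been chosen for decreases in the same direction at the other glucose level, and the median log2 fold change of the 10, -0.55 against -0.017 over all genes, carries the same choice. Between 2 and 11 mM in the GFP libraries, 3 of the 10 were called lower and 2 higher, against 10.0% and 10.2% of all genes. All 3 decreases belonged to Gs-coupled receptors, and the median of the 10 was -0.06 against -0.0024. The 3 were Glp1r, Gipr and Crhr1, of which Crhr1 had been chosen by a contrast that holds the GFP libraries at 11 mM. In the libraries labelled ChREBPβ, 4 of 10 were called lower at 11 mM, against 2.88% of all genes, and 0 were called higher by edgeR, against 0.988%, with 0 at an unadjusted p below 0.05 and 0 by DESeq2. The 4 were Glp1r, Gipr, Crhr1 and Ffar1, of which Crhr1 had been chosen for its low values in these same ChREBPβ libraries at 11 mM. For the interaction, 1 receptor, Gcgr, was called more negative at 11 mM, against 4.74% of all genes, and 0 were called more positive by edgeR, against 1.56%, with 2 at an unadjusted p below 0.05 (Glp1r and Adra2a) and 0 by DESeq2. The interaction holds the 11 mM contrast by which Oxtr and Crhr1 were chosen, so its values for those genes are a description. The comparisons share libraries and are not independent of each other.

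At 11 mM glucose, the contrast in which Oxtr and Crhr1 had been seen to fall, the log2 fold changes between viruses were -2.09 ± 0.12 for Oxtr and -1.65 ± 0.11 for Crhr1. Gipr stood at -0.70 ± 0.051, Glp1r at -0.47 ± 0.053, Adra2a at -0.45 ± 0.057, Sstr2 at -0.42 ± 0.22, Chrm3 at -0.34 ± 0.12 and Ffar1 at -0.11 ± 0.063. Sstr3 and Gcgr were on the positive side, at 0.53 ± 0.048 and 0.39 ± 0.044. By the same rule 6 of the 10 were past the threshold as lower, where 19.1% of all genes were, and 2 as higher, where 14.3% were; nothing is read from these counts. Chrm3 was not among the 6 when library b of the GFP group, or library b or c of the ChREBPβ group, at 11 mM was left out (-0.28, -0.29 and -0.31).

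Scaling bears on how many genes are called each way. Of all genes called between viruses, 47.5% were higher with ChREBPβ at 2 mM and 42.9% at 11 mM, and these shares became 33.2% and 29.3% when library totals were used without TMM factors. For the interaction, 24.8% of the calls were positive, and 35.3% with upper-quartile scaling. No called difference of the 10 receptors changed sign under RLE, upper-quartile or total-count scaling or in DESeq2, and the Sstr2 call between 2 and 11 mM in GFP was lost under each of those 3 scalings.

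**Figure D3:**
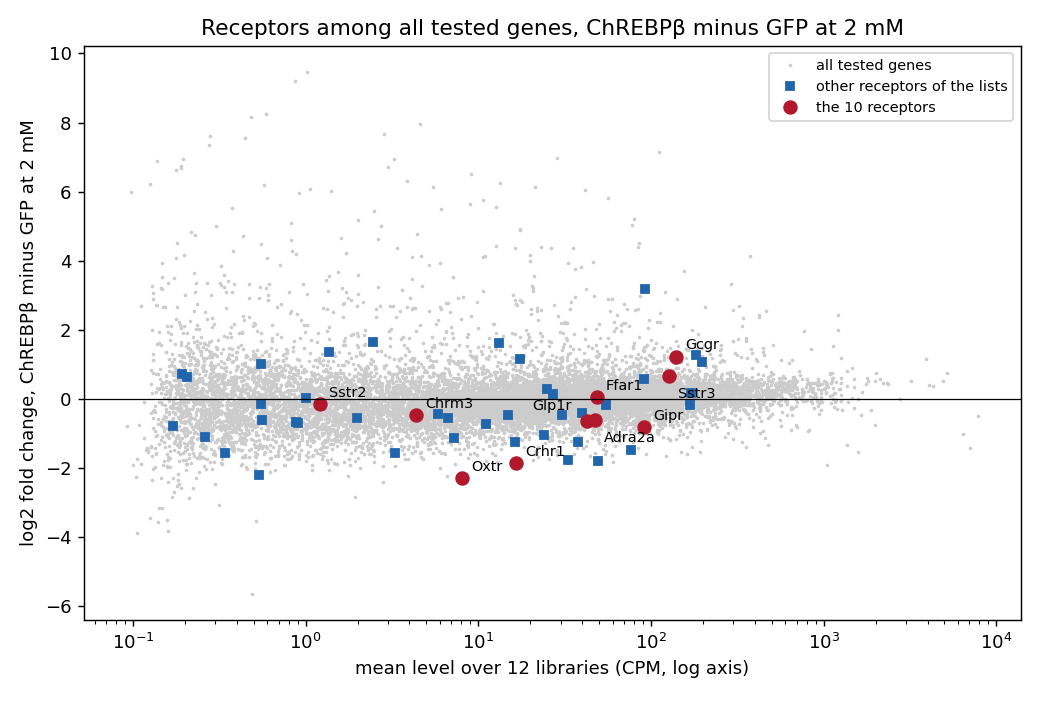
Log2 fold change between viruses at 2 mM (vertical axis) against mean level over the 12 libraries in CPM (horizontal log axis) for the 14669 tested genes (grey), the 40 tested receptors of the other lists (blue squares) and the 10 receptors (red, named). Oxtr lies toward the lower edge of the cloud at 8.07 CPM, and Ffar1 lies near 0.

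Ratios of raw counts within a library involve no scaling between libraries, and are given as a description. There were 1.12, 1.24 and 1.24 counts of Gcgr for each count of Glp1r in the GFP libraries at 2 mM and 3.55, 3.11 and 3.44 at 11 mM. With ChREBPβ the ratio stood at 4.56, 4.54 and 4.11 in low glucose and 6.03, 6.22 and 6.13 in high glucose. The 4 groups were separate and rose in that order. Gcgr over Gipr likewise went from 0.570, 0.535 and 0.574 to 1.39, 1.33 and 1.44 with GFP. It went from 2.35, 2.29 and 2.32 to 2.98, 2.80 and 3.12 with ChREBPβ. The balance of Gs-coupled receptor counts therefore shifted from the incretin receptors toward the glucagon receptor in both conditions.

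Among the Gi-coupled receptors, Sstr3 over Adra2a was 1.83, 1.82 and 1.63 with GFP at 2 mM and 1.90, 1.76 and 1.91 at 11 mM. With ChREBPβ it was 4.17, 4.11 and 4.48 and 3.46, 3.72 and 3.80. The viruses were apart and the GFP groups overlapped. Oxtr over Chrm3, the pair of Gq-coupled receptors that fell at 2 mM, was 2.87, 2.84 and 2.65 and 2.75, 2.47 and 2.45 with GFP. It was 0.543, 1.03 and 0.747 and 0.782, 0.794 and 0.695 with ChREBPβ, below every GFP library. Crhr1 over Glp1r went from 0.565, 0.584 and 0.570 in the GFP libraries at 2 mM to 0.153, 0.203 and 0.178 in the ChREBPβ libraries at 11 mM. Of the 7 ratios computed, Glp1r over Gipr varied least, from 0.392 to 0.564 over the 12 libraries.

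**Figure D4:**
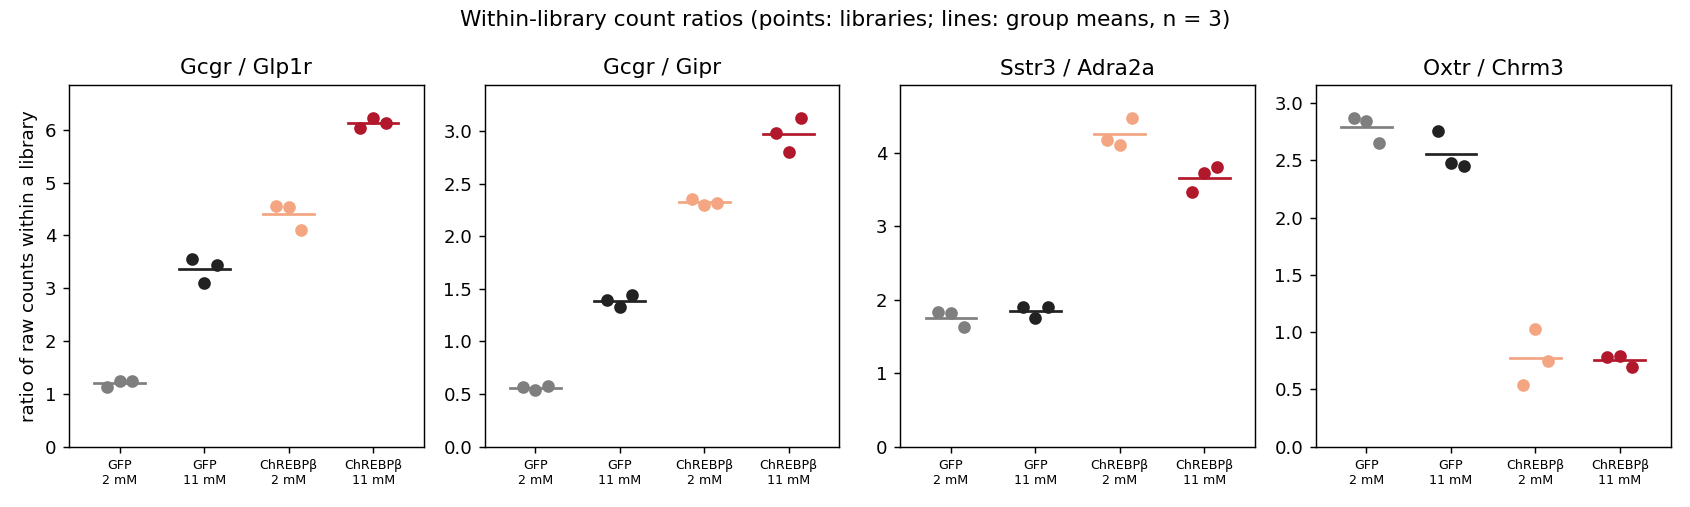
Ratio of raw counts of a receptor pair within each library (vertical axes, from 0; points are libraries, lines the means of 3) by virus and glucose. Gcgr over Glp1r went from 1.12 to 1.24 in the GFP libraries at 2 mM to a mean of 6.13 in the ChREBPβ libraries at 11 mM, and Oxtr over Chrm3 lay near 0.77 and 0.76 in the ChREBPβ groups.

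The wider receptor lists held 55 further receptors, of which 40 were tested. With ChREBPβ at 2 mM, 17 of the 40 were called lower and 10 higher, against 23.2% and 21.0% of all tested genes. Between 2 and 11 mM in the GFP libraries 7 were lower and 6 higher, against 10.0% and 10.2%. In the libraries labelled ChREBPβ the glucose difference gave 4 lower and 2 higher, against 2.88% and 0.988%, and the interaction 2 more negative and 2 more positive, against 4.74% and 1.56%. At 11 mM, 16 were lower and 9 higher with ChREBPβ, against 19.1% and 14.3%. These shares of all genes also apply to the counts of each receptor list below.

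Of 12 other Gs-coupled receptors 8 were tested. With ChREBPβ at 2 mM, 3 were called higher and 2 lower, against 21.0% and 23.2% of all genes. The median log2 fold change was 0.29, against -0.017 over all genes. The adenosine receptor Adora2b rose from 17.3 ± 1.55 CPM to 155 ± 6.64 CPM (SD, n = 3; log2 3.16 ± 0.072, edgeR adjusted p = 5.22e-18), and was also higher at 11 mM with GFP (0.70 ± 0.074, edgeR adjusted p = 5.83e-07). The receptors Vipr1 and Adcyap1r1, for vasoactive intestinal peptide and its relative PACAP, were higher by 1.65 ± 0.21 and 0.57 ± 0.048. Gpr119, a lipid receptor that promotes insulin release, fell from 132 ± 4.01 CPM to 46.7 ± 4.48 CPM (-1.49 ± 0.056, edgeR adjusted p = 1.42e-14) and was lower at 11 mM with both viruses (-0.53 ± 0.055 with GFP, -0.35 ± 0.057 with ChREBPβ). Adora2a was lower with ChREBPβ (-0.74 ± 0.087) and at 11 mM with GFP (-0.42 ± 0.085), and Calcrl was higher at 11 mM with ChREBPβ (1.14 ± 0.25, edgeR adjusted p = 0.00811). Adora2b had a negative interaction (-0.60 ± 0.096, edgeR adjusted p = 4.08e-04).

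Of the 12 other Gq-coupled receptors 7 were tested. With ChREBPβ at 2 mM there were 2 calls in each direction, against 21.0% of all genes higher and 23.2% lower. In each direction 1 call was of a gene at low counts, Grpr higher (mean 0.555 CPM, edgeR adjusted p = 0.0487) and Cckar lower (mean 0.536 CPM). The median was -0.15, against -0.017 over all genes. P2ry1, a purinergic receptor for extracellular ADP, fell from 91.7 ± 2.13 CPM to 26.4 ± 0.691 CPM (-1.79 ± 0.05, edgeR adjusted p = 1.25e-16) and was lower at 11 mM with GFP (-0.59 ± 0.048) and with ChREBPβ (-0.41 ± 0.052). Casr, the calcium-sensing receptor, rose from 6.14 ± 0.336 CPM to 18.8 ± 1.04 CPM (1.61 ± 0.11, edgeR adjusted p = 1.66e-10). The glucose difference with GFP gave 2 receptors higher and 1 lower, against 10.2% and 10.0% of all genes. The 2 were Grpr and Adra1b, at low counts with means of 0.555 and 0.884 CPM over the 12 libraries. With ChREBPβ it gave 1 lower, against 2.88%.

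The 21 other Gi-coupled receptors had 16 tested. With ChREBPβ at 2 mM, 7 were called lower and 5 higher, against 23.2% and 21.0% of all genes. Their median was -0.49, against -0.017 over all genes. Among those with a mean of at least 1 CPM, the largest increases were those of Adra2b (1.36 ± 0.25), the GABA receptor subunit Gabbr2 (1.28 ± 0.047) and the prostaglandin receptor Ptger3 (1.16 ± 0.069). The cannabinoid receptor Cnr1 (-1.56 ± 0.15), the melatonin receptor Mtnr1a (-1.25 ± 0.076) and Sstr1 (-1.15 ± 0.11) fell the most. Sstr1 thus moved opposite to Sstr3 within the somatostatin receptors, of which Sstr4 had 0 counts in the 12 libraries and Sstr5 at most 10 in any. Ptger3 had a negative interaction (-0.53 ± 0.093, edgeR adjusted p = 0.00104). Between 2 and 11 mM in GFP, 3 were called higher, Ptger3 (0.52 ± 0.071), Chrm4 (0.33 ± 0.071) and Adora1 (0.32 ± 0.04), and 3 lower, Adra2b (-1.02 ± 0.31), the short-chain fatty acid receptor Ffar3 (-0.52 ± 0.063) and the dopamine receptor Drd2 (-0.32 ± 0.11). In the libraries labelled ChREBPβ, Drd2 (-0.82 ± 0.12) and Ffar3 (-0.48 ± 0.06) were lower and Mtnr1a (0.32 ± 0.076) higher at 11 mM.

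Of 10 other hormone receptors 9 were tested. With ChREBPβ at 2 mM, 6 were called lower, against 23.2% of all genes, and the median was -0.47, against -0.017 over all genes. Vdr (-1.78 ± 0.11, edgeR adjusted p = 1.70e-11), the vitamin D receptor, the prolactin receptor Prlr (-1.26 ± 0.073) and Igf1r (-1.06 ± 0.082) fell the most among those called at a mean of 1 CPM or more. The thyroid hormone receptor Thra was the 1 call of the list between 2 and 11 mM with GFP (-0.45 ± 0.057). Vdr (0.52 ± 0.14) and Thra (0.34 ± 0.08) had positive interactions.

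The signal from these receptors passes through G proteins, arrestins and receptor kinases, and of 24 such genes 23 were tested. With ChREBPβ at 2 mM 5 were called higher and 7 lower, against 21.0% and 23.2% of all genes, and the median was -0.07 against -0.017 over all genes. Arrb1, encoding β-arrestin 1, was higher (0.83 ± 0.11), as were the G protein α subunits Gna12 (0.61 ± 0.037) and Gna11 (0.51 ± 0.05), the latter of the Gq class. Of the α subunits of the inhibitory class, Gnai1 (-0.65 ± 0.058), Gnao1 (-0.50 ± 0.049) and Gnai2 (-0.28 ± 0.041) were called lower, Gnaz (0.27 ± 0.042) was called higher and Gnai3 (0.21 ± 0.042) was not called. Gnas, the α subunit of Gs, was lower (-0.46 ± 0.053), as was the receptor kinase Grk5 (-0.69 ± 0.079); Gnai2, Gnai3, Gnaz and Gnas were named here after their values were seen. Between 2 and 11 mM in GFP 1 of the 23 was called, Arrb1, which was higher (0.33 ± 0.12, edgeR adjusted p = 0.0369), where 10.2% of all genes were called higher and 10.0% lower.

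**Figure D5:**
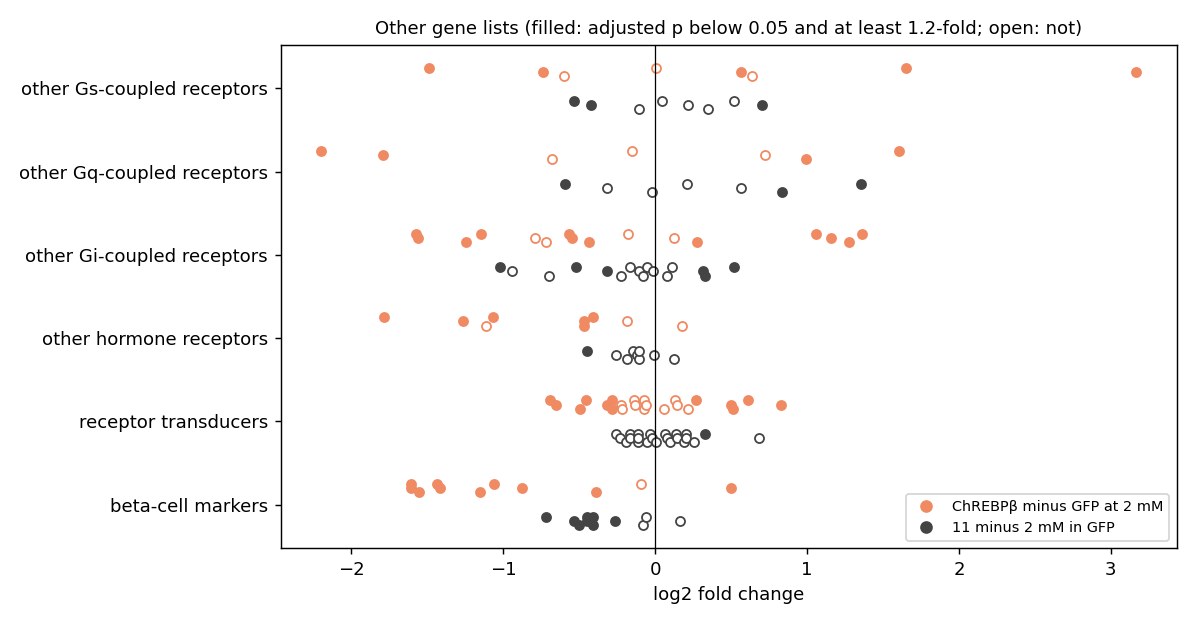
Log2 fold changes (horizontal axis) of the tested genes of 6 other lists, orange for ChREBPβ minus GFP at 2 mM and dark grey for 11 minus 2 mM in GFP; filled points were called. Of the 11 tested β-cell markers, 9 were called lower with ChREBPβ at 2 mM and 1 higher, and of the 23 tested transducers 7 lower and 5 higher. Of all 14669 tested genes 23.2% were called lower and 21.0% higher in that comparison.

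Of the genes of the receptors' peptide ligands, Gcg was well above the filter on low counts and the others found in the table had at most 46 counts in any library. Of the 9 ligand genes of the receptors, Cort had no entry of that name and was not analysed here, and only Gcg and Ucn were tested. Gcg, whose product is cleaved to glucagon and glucagon-like peptide 1, ligands of Gcgr and Glp1r, had 1624 ± 39.1 CPM in the GFP libraries at 2 mM and 433 ± 6.08 CPM in their ChREBPβ counterparts (SD, n = 3; log2 -1.91 ± 0.044, edgeR adjusted p = 5.65e-18). Gcg and Gcgr thus moved in opposite directions between viruses. The urocortin gene Ucn, a ligand gene of Crhr1, had 0 to 46 counts per library and was called higher with ChREBPβ at 2 mM (2.24 ± 0.69, edgeR adjusted p = 0.00885), from 1 or 2 counts in the GFP libraries to 6 to 12. Of the others, Oxt and Ucn2 had 0 counts in the 12 libraries, and Gip, Crh, Ucn3 and Sst had at most 9 in any library. Of 9 other islet peptide genes 3 were tested. With ChREBPβ at 2 mM 1 was called higher and 2 lower, against 21.0% and 23.2% of all genes. Cck rose from 16.9 ± 1.47 CPM to 75.3 ± 4.84 CPM (2.15 ± 0.073, edgeR adjusted p = 2.42e-15), and Iapp, encoding amylin, fell from 2665 ± 69.4 CPM to 908 ± 8.49 CPM (-1.55 ± 0.038). The other decrease was that of Npy, at low counts, with 6 to 15 in the GFP libraries and 4 in each ChREBPβ library. Of 6 genes of amine and acetylcholine metabolism 3 were tested, and Ache, the enzyme that breaks down the ligand of Chrm3, was lower with ChREBPβ at 2 mM (-1.05 ± 0.059, edgeR adjusted p = 8.36e-12) and with GFP at the higher glucose level (-0.36 ± 0.057).

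Most tested markers of the β-cell were called lower with ChREBPβ at 2 mM and at 11 mM glucose in GFP. All 12 β-cell markers were in the table and 11 were above 1 CPM; with Ins1, which held the most counts, the list summed to 15373, 16230 and 17229 CPM in the GFP libraries at 2 mM and 12757, 11733 and 12625 CPM at 11 mM. With ChREBPβ it summed to 6532, 6661 and 6624 CPM and 5578, 5951 and 5696 CPM. The sums, most of which were Ins1, were lower with ChREBPβ and at 11 mM without overlap. At 2 mM 9 of 11 markers were called lower with ChREBPβ (23.2% of all genes), among them Pcsk1 (-1.61 ± 0.069), Nkx6-1 (-1.61 ± 0.055) and Ins1 (-1.44 ± 0.056), and 1 higher, the glucose transporter Slc2a2 (0.50 ± 0.04). Between 2 and 11 mM in GFP 8 of 11 were lower (10.0% of all genes), led by Ins2 (-0.72 ± 0.078), Nkx6-1 (-0.53 ± 0.053) and Mafa (-0.50 ± 0.053). In the libraries labelled ChREBPβ 3 of 11 were called lower at 11 mM (2.88% of all genes), namely Ins2 (-0.45 ± 0.083), Mafa (-0.39 ± 0.053) and Nkx6-1 (-0.35 ± 0.056), and 8 were not called. The interaction was called more positive for 2 of the 11 (1.56% of all genes), Pcsk1 (0.32 ± 0.095) and Pdx1 (0.28 ± 0.061). The other 9 were not called, so their 2 glucose differences were not shown to differ. The part of the marker decreases in the receptor differences was not tested.

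Markers of other pancreatic cells were mostly near 0. Of 6 α-cell markers, Gcg made up nearly all of the sum, which was 1616, 1694 and 1641 CPM at 2 mM and 1730, 1618 and 1659 CPM at 11 mM in the GFP libraries. In those labelled ChREBPβ it was 438, 448 and 437 CPM and 456, 487 and 508 CPM. The 4 δ- and PP-cell markers summed to 0.201 to 0.612 CPM over the 12 libraries, with most counts on Hhex and Rbp4 at 0. Of 8 acinar and ductal markers only Krt7 exceeded 1 CPM, and without it the list summed to at most 0.128 CPM; Prss1, Cftr and Spp1 were at 0. Krt7 had 133 ± 5.12 CPM in the GFP libraries at 2 mM and 157 ± 4.73 CPM in their ChREBPβ counterparts, which was not called (0.24 ± 0.045). It was called higher with ChREBPβ at 11 mM (0.42 ± 0.045) and lower at 11 than at 2 mM with GFP (-0.31 ± 0.046). The 7 of 9 stromal, endothelial and blood markers found in the table (Col1a2 and Pecam1 were not analysed here) summed to 184, 184 and 189 CPM with GFP and 87.1, 88.1 and 85.1 CPM with ChREBPβ at 2 mM. At 11 mM they summed to 156, 149 and 152 CPM and 83.3, 82.8 and 84.8 CPM. Thy1 was nearly all of the sum, the other genes together reached at most 3.37 CPM, and Ptprc was at 0. At 2 mM Thy1 and Kdr were called lower with ChREBPβ, where 23.2% of all genes were. The other 2 of the 4 tested, named after their values were seen, were called higher, where 21.0% of all genes were. Pdgfrb had 0 to 1 counts in the GFP libraries and 23 to 35 in those labelled ChREBPβ, and Cd68 10 to 12 and 31 to 35.

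The genes whose log2 CPM most resembled each receptor over the 12 libraries were found among 10467 or 10468 genes that averaged 5 CPM or more, as a description of 4 groups that share virus, glucose and depth. Nearest to Oxtr were Gabra4 (r = 0.997), Usp51 (r = 0.995) and Pcsk1 (r = 0.994), where Pcsk1 is the prohormone convertase of the β-cell. Crhr1 was followed most closely by Actl6b (r = 0.995), Gpx3 (r = 0.993) and Sort1 (r = 0.991). For the incretin receptors these were Washc2c (r = 0.990), Rab3b (r = 0.988) and RGD1305938 (r = 0.988) for Glp1r and Pitpnm1 (r = 0.998), Lgals2 (r = 0.996) and Pkdcc (r = 0.996) for Gipr. Gcgr was most like Rrm1 (r = 0.996), Lcp1 (r = 0.996) and Cpne9 (r = 0.995), and Sstr3 most like Pdzrn3 (r = 0.993), Kcnk16 (r = 0.992) and Rnf5 (r = 0.992). For Adra2a they were Stim1 (r = 0.995), Igfbp4 (r = 0.986) and Fam219a (r = 0.984). The receptors with fewer counts or a narrower range had lower values, with Lrrc8c (r = 0.962), Gramd1b (r = 0.934) and AABR07058699.2 (r = 0.931) for Chrm3, Ddx17 (r = 0.906), Hpca (r = 0.895) and Slc17a5 (r = 0.871) for Ffar1 and Donson (r = 0.908), Clptm1l (r = 0.870) and Gtf2f2 (r = 0.869) for Sstr2.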

How the data were processed

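The authors deposited a table of read counts per rat gene for 12 libraries; their processing notes name the build Rnor_6.0 and edgeR, and the aligner and counter are not given in the sources used here. Columns with the authors' group means were not used. Of 28728 rows, 1 had no gene name and was left out (0.00430 to 0.00601% of a library's counts); 2 names were repeated and kept as separate rows.

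In R 4.3.3, genes were filtered with filterByExpr, scaled by TMM (factors 0.958 to 1.06) and fitted with edgeR 4.0.16 (glmQLFit, glmQLFTest) on all 12 libraries without covariates. SE is the log2 fold change divided by the square root of F, and 95% intervals used 8 residual degrees of freedom. Comparisons were the virus at each glucose level, glucose within each virus, and their interaction. Libraries of a group differed beyond counting noise (chi-square per degree of freedom 3.06 to 16.6). Alternatives were RLE, upper-quartile and total-count scaling, DESeq2 1.42.0, no low-count filter, a floor of 10 counts in all libraries, a replicate block, no minimum fold or 2-fold, thinning to the smallest total, and leaving out each library. All fits were tested on simulated counts first; there DESeq2 made more false calls than the quasi-likelihood fit and exceeded the limit first set for it, which was then kept for the quasi-likelihood fits only.

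Members and lists were chosen with earlier results of these data known. Named were the 10 receptors, up to 3 called genes with the largest increase and 3 with the largest decrease per list and comparison at a mean of at least 1 CPM (a selection of these is printed), the 3 genes with the highest Pearson r (prior count 2) per receptor, and Mlxipl, Pklr and Txnip. Ins1 and the low-count Ucn were named outside the rule for lists. So were genes given as not called or at low counts, and those marked as named after their values were seen. Promoters were from RefSeq (GRCr8), matched by symbol only.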

Additional observations from a re-analysis of the deposited data

Results flagged for a closer look

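The effect of the ChREBPβ virus on Gcgr differed between the glucose levels: the log2 fold change at 11 mM minus that at 2 mM was -0.83 ± 0.063 (edgeR adjusted p = 2.97e-08). At 2 mM the log2 fold change was 1.22 ± 0.046 and at 11 mM 0.39 ± 0.044, and the value of the interaction ranged from -0.87 to -0.79 over the alternatives, with adjusted p from 8.11e-33 to 4.88e-07. The GFP libraries rose from 74.3 ± 3.63 CPM to 134 ± 6.80 CPM with glucose (SD, n = 3), and the ChREBPβ libraries were at 173 ± 1.81 CPM and 177 ± 0.822 CPM.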

How the results depend on the processing

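The 10 counts of calls (receptors, and genes of the other lists without markers, in 5 comparisons) were compared over 22 alternatives each, and the 50 receptor fold changes over 20. Of 220 alternative counts 208 were within 1.5 times the main count, and of 1000 alternative fold changes 971 kept their direction and their side of the threshold, 18 lost the call and 11 changed sign. With a minimum of 2-fold the receptors called were 3 (virus, 2 mM), 2 (virus, 11 mM), 1 (glucose, GFP), 0 (glucose, ChREBPβ) and 0 (interaction) in place of 8, 8, 5, 4 and 1, and the other list genes 23, 19, 3, 2 and 0 in place of 45, 40, 18, 7 and 4, as a stricter rule must give. DESeq2 called 8 other list genes for the interaction; the cause was not tested. Leaving out 1 library gave 8 to 8, 7 to 8, 4 to 5, 4 to 4 and 1 to 1 receptors and 41 to 47, 38 to 42, 15 to 20, 5 to 9 and 3 to 7 other list genes, with 7 for the interaction without GFP library b at 11 mM.

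All sign changes were in differences that were not called. Ffar1 between viruses at 2 mM was -0.014 with upper-quartile scaling and -0.054 with library totals, and -0.011 to 0.12 without 1 library. Sstr3 with glucose in GFP was -0.010 and -0.020 with the same scalings, and -0.030 to 0.045 without 1 library. Adra2a with glucose in GFP was -0.14 to 0.0041 without 1 library, and Oxtr with glucose in GFP -0.084 to 0.017. Sstr2 for the interaction was 0.074 after thinning; the cause was not tested.

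The labels do not say whether the replicate letters pair the samples, and no pairing by letter was detected. Same-letter libraries of different groups had deviations from their group means that correlated between -0.11 and 0.064 over genes, with 0 of 18 pairs over 0.1. Among different-letter pairs, GFP library b and ChREBPβ library a at 11 mM reached 0.16, and the cause was not tested. With the letter as a replicate block the receptors called were 8, 8, 5, 4 and 1 and the other list genes 44, 40, 18, 7 and 4. Depth limits Sstr2 most, at 22 to 83 counts per library.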
